A study of Mus musculus with 15 samples.

Results

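The S100 and annexin genes described here are 10 of the 18931 genes in the count table, chosen by symbol. They are the S100 genes S100a4, S100a6, S100a8, S100a9, S100a10 and S100a11 and the annexin genes Anxa1, Anxa2, Anxa3 and Anxa5. All 10 were found and all 10 passed the filter on low counts. Brain RNA of Kunming mice, an outbred stock, was sequenced in 15 libraries, 3 in each of 5 groups labelled JA, UA, JU, vehicle and sham. Every sample title, sham included, carries the term MCAO, the common short form for surgical occlusion of the middle cerebral artery. The series title concerns the joint use of jasminoidin and ursodeoxycholic acid after cerebral ischemia, but the labels do not spell out JA, UA or JU. The sources used here do not state brain region, hemisphere, age, dose or time after surgery.

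S100 proteins are small calcium-binding proteins of the EF-hand type that change shape when calcium enters a cell and then bind partner proteins. Annexins bind membrane phospholipids when calcium is present, and several S100 proteins dock onto the free end of an annexin, S100a10 with Anxa2 and S100a11 with Anxa1. In injured brain these genes are known from reactive astrocytes, microglia, macrophages, vessel and scar cells, while S100a8 and S100a9 are best known as the abundant cytosolic pair of neutrophils.

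The 6 S100 genes lie on mouse chromosome 3 (build GRCm38) within a stretch of 2960873 bases, from S100a4 at chr3:90603771-90606045 to S100a10 at chr3:93555080-93564643. Within that stretch S100a6 lies at chr3:90612882-90624181, S100a8 at chr3:90668978-90670035, S100a9 at chr3:90692632-90695721 and S100a11 at chr3:93520488-93526287. The annexins are scattered, with Anxa5 also on chromosome 3 (chr3:36448923-36475894), Anxa1 at chr19:20373428-20390944, Anxa2 at chr9:69453620-69491795 and Anxa3 at chr5:96793339-96845966. Exons of S100a4 overlap the same-strand coding gene Gm42674, those of Anxa3 the same-strand Gm42603 and those of Anxa2 the antisense gene Gm16144, so the counts of these members are uncertain to the extent that reads were shared.

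Promoters from the RefSeq table (GRCm38.p6) were matched by symbol for 8 of the 10 members, without S100a10 and Anxa3. The 250 bases before the transcription start are shown for S100a11 and Anxa2, the only members of the 8 with AP-1 letters, and for S100a8 and S100a9. S100a11 and Anxa2 are among the members with higher levels in vehicle than in sham libraries, and S100a8 and S100a9 did not share that pattern. Capitals mark matches, on either strand, to the letters of AP-1 (TGANTCA), C/EBP (TTNCNNAA), PU.1 (AGGAAGT) or a TATA box (TATAAA).
S100a11, chr3:93520246-93520495 (+ strand): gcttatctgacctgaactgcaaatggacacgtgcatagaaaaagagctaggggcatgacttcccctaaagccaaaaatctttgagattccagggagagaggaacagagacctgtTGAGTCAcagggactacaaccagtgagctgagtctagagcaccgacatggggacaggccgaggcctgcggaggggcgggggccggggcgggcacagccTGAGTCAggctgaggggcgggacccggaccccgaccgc
Anxa2, chr9:69453433-69453682 (+ strand): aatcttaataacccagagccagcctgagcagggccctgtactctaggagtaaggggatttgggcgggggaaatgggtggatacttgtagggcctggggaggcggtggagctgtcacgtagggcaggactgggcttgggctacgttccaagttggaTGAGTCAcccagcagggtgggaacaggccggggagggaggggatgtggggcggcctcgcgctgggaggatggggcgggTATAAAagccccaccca
S100a8, chr3:90668821-90669070 (+ strand): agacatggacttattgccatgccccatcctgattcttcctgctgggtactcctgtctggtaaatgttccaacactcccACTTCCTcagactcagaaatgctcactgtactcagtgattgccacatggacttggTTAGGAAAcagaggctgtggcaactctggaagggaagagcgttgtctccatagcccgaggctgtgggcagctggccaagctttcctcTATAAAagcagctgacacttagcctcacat
S100a9, chr3:90695722-90695971 (minus strand): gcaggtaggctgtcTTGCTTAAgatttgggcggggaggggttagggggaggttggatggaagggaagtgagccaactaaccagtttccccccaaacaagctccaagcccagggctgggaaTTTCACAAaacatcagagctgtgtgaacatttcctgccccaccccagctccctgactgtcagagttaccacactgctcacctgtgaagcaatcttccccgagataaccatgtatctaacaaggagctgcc
The AP-1 letters began at positions -136 and -38 from the start in S100a11 and at -95 in Anxa2, and in no other member promoter of the 8. S100a4, S100a6 and Anxa1, also higher in every vehicle than in every sham library, lacked them. The AP-1 letters therefore do not set apart the members that were higher in vehicle. They occur in 6.75% of all 32851 promoters of this length in the table. The C/EBP letters, present in 36.8% of all promoters, were found in S100a8 at -117, in S100a9 at -236 and -130 and in Anxa1. The PU.1 letters (7.69% of all promoters) were found in S100a8 alone, at -172, and TATAAA (12.4%) in S100a4, S100a8, Anxa1 and Anxa2. No member promoter held the STAT letters TTCNNNGAA (7.02%) or the NF-kB motif (1.21%), and none of the matches in the members overlapped another motif. A match describes the letters in this window and is not evidence of binding.

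Each library held between 18346180 and 20447465 counts. Levels below are CPM, counts scaled by TMM to one common library size, and error is SD with n = 3. The limit that a count of 0 allows is 3 counts, or 0.147 to 0.164 CPM, for counting error only. No label states that the 3 libraries of a group are 3 animals, so the p-values reflect spread between libraries that could be technical alone. The tissue is whole RNA of many cell types, in which fewer cells of a type and less RNA per cell cannot be told apart. JU replicate 1 stood apart from its group, with chi-square values, divided by their degrees of freedom over all genes, of 337 and 281 against the other JU libraries, which differed from each other by 16.6. Vehicle replicate 2 (65.4 and 59.1, against 12.98 between the other vehicle libraries) and JA replicate 1 (33.5 and 38.1, against 7.93) also stood apart. Calls of the members are also given without these libraries, and calls in the other gene lists without JU replicate 1.

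Per transcript length, vehicle brain held similar mRNA levels of Anxa5 (56.6 ± 19.5 FPKM; SD, n = 3 here and below), S100a10 (42.8 ± 12.1), Anxa2 (41.9 ± 25.4), S100a6 (40.0 ± 13.8) and S100a11 (38.7 ± 25.6), whose ranges across libraries overlapped. Within each vehicle library Anxa5 was the highest of these. S100a4 (20.1 ± 12.2) and Anxa3 (19.3 ± 7.63) came next, then Anxa1 (9.90 ± 8.15), and S100a9 (1.90 ± 0.783) and S100a8 (1.82 ± 1.49) were lowest. In sham brain Anxa5 (39.4 ± 8.94 FPKM) and S100a10 (31.6 ± 9.08) led. Their ranges overlapped, but Anxa5 was above S100a10 within each sham library. S100a6 followed at 17.8 ± 2.58 FPKM, then Anxa2 at 9.32 ± 0.794 and S100a11 at 6.55 ± 1.84, whose ranges overlapped, and Anxa3 at 3.62 ± 0.280. Within each sham library Anxa2 was above S100a11. S100a9, Anxa1, S100a8 and S100a4 lay lowest in sham brain, between 2.01 and 2.60 FPKM on average, within each other's spread.

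**Figure D1:**
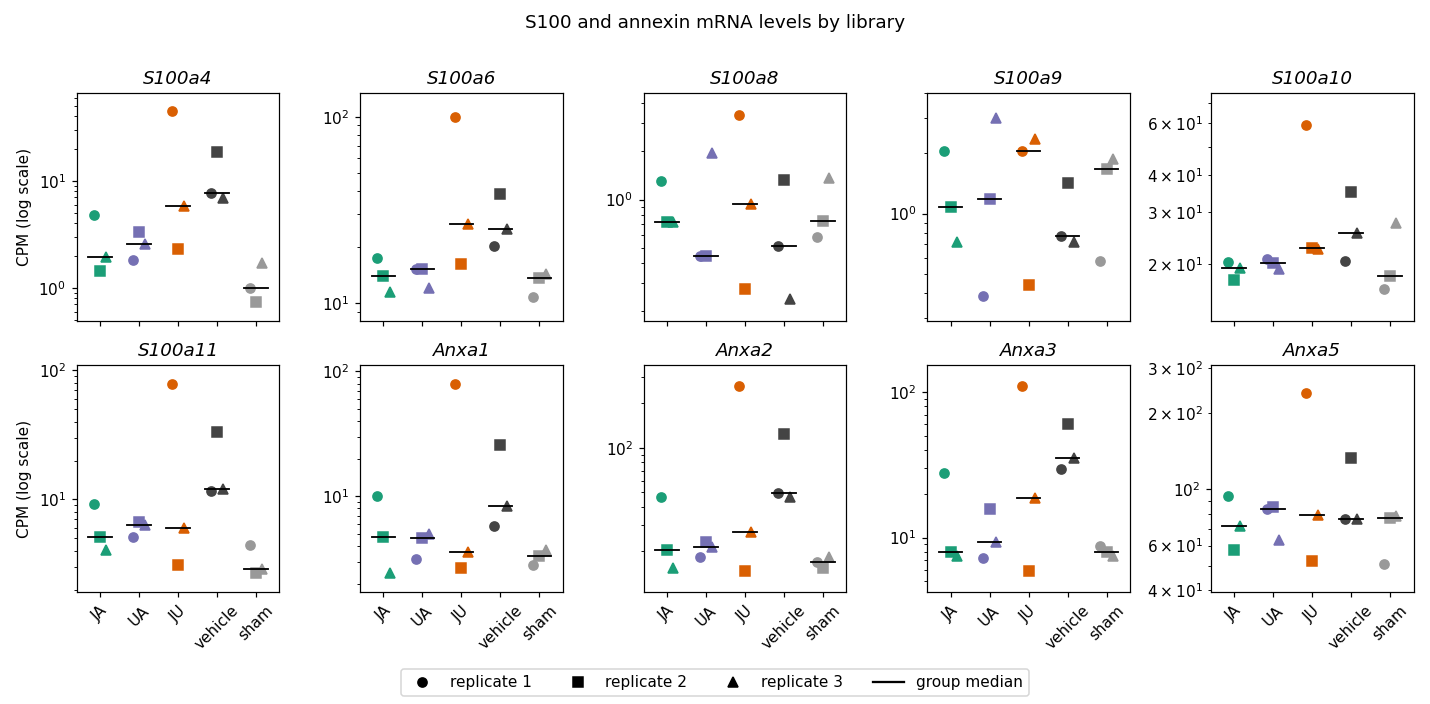
CPM of each of the 10 genes (y axis, log scale) in each library of the JA, UA, JU, vehicle and sham groups (x axis), with 1 point per library and a line at the group median. JU replicate 1 is the highest library for 9 genes, vehicle replicate 2 is second for 8 genes, and S100a8 and S100a9 do not follow the other 8.

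S100a4, a binding partner of non-muscle myosin linked to cell motility, measured 4.78, 1.44 and 1.93 CPM in JA, 1.83, 3.31 and 2.56 in UA, 44.9, 2.29 and 5.77 in JU, 7.63, 18.7 and 6.88 in vehicle, and 0.9999, 0.729 and 1.72 in sham libraries. Every vehicle library lay above every sham, JA and UA library. S100a6, also called calcyclin and a regulator of cell cycle and cytoskeleton, measured 17.4, 14.03 and 11.55 CPM in JA, 15.3, 15.3 and 12.1 in UA, 100.1, 16.2 and 26.8 in JU, 20.4, 38.6 and 24.9 in vehicle, and 10.8, 13.6 and 14.3 in sham libraries. It had the same non-overlap between vehicle and the sham, JA and UA libraries, over a smaller range.

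Anxa2, a membrane organiser that with S100a10 forms a cell-surface receptor for plasminogen, measured 46.7, 20.5 and 15.6 CPM in JA, 18.5, 23.2 and 21.5 in UA, 262, 14.7 and 26.9 in JU, 49.7, 124 and 46.3 in vehicle, and 16.9, 15.5 and 18.4 in sham libraries. JA replicate 1 reached the vehicle range, and the other JA libraries lay near sham. S100a10, its partner, which unlike most S100 proteins does not bind calcium, measured 20.3, 17.6 and 19.4 CPM in JA, 20.8, 20.1 and 19.3 in UA, 59.3, 22.7 and 22.4 in JU, 20.4, 35.2 and 25.6 in vehicle, and 16.5, 18.2 and 27.5 in sham libraries. Vehicle and sham libraries overlapped for S100a10 and not for Anxa2, while JU replicate 1 was the highest library and vehicle replicate 2 the next for both. The ratio of S100a10 to Anxa2 FPKM was 1.14, 0.785 and 1.53 in vehicle, against 2.69, 3.25 and 4.14 in sham libraries. It was 1.202, 2.39 and 3.44 in JA, 3.12, 2.40 and 2.48 in UA, and 0.627, 4.28 and 2.31 in JU libraries. The log2 ratio was lower by 1.58 in vehicle than in sham (a difference of -1.58), without overlap. A two-sided exact permutation test gave p = 0.1, the smallest that 3 against 3 allows, and 0.2 after Benjamini-Hochberg adjustment over 4 comparisons. Against vehicle the differences in log2 ratio were 0.95 in JA (exact p = 0.2), 1.26 in UA (exact p = 0.1, without overlap) and 0.73 in JU (exact p = 0.5).

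**Figure D2:**
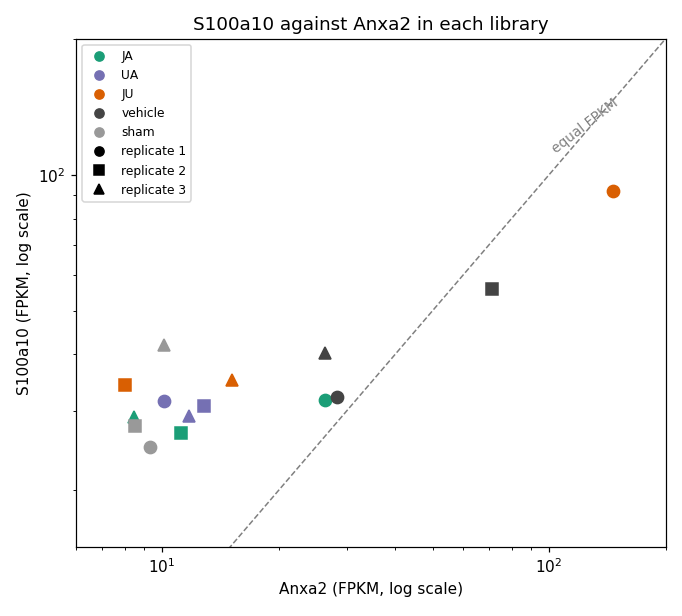
S100a10 FPKM (y axis) against Anxa2 FPKM (x axis) in each of the 15 libraries, both on log scales, with a dashed line where the 2 are equal. Colours mark groups and shapes mark replicates. Anxa2 spans 8.01 to 146.6 FPKM and S100a10 only 25.02 to 91.9, and only vehicle replicate 2 and JU replicate 1 lie below the line.

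S100a11, a partner of Anxa1 known for roles in membrane repair and growth control, measured 9.21, 5.09 and 4.09 CPM in JA, 5.09, 6.71 and 6.30 in UA, 77.8, 3.11 and 6.02 in JU, 11.6, 33.3 and 11.9 in vehicle, and 4.42, 2.71 and 2.87 in sham libraries. All vehicle libraries were above all JA, UA and sham libraries. Anxa1, a glucocorticoid-induced protein that acts on formyl peptide receptors to limit inflammation, measured 10.02, 4.73 and 2.43 CPM in JA, 3.15, 4.64 and 4.97 in UA, 79.3, 2.68 and 3.60 in JU, 5.83, 26.01 and 8.41 in vehicle, and 2.84, 3.33 and 3.70 in sham libraries. Here JA replicate 1 overlapped vehicle, while UA and sham did not. In both genes JU replicates 2 and 3 were below every vehicle library.

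Anxa3, an annexin of neutrophil granules that is also known from rat microglia, measured 27.7, 8.02 and 7.46 CPM in JA, 7.19, 15.7 and 9.27 in UA, 111 (JU replicate 1), 5.85 and 18.7 in JU, 29.6, 60.01 and 35.1 in vehicle, and 8.79, 7.97 and 7.51 in sham libraries. All vehicle libraries were above all JA, UA and sham libraries. Anxa5, which binds exposed phosphatidylserine and is used as a stain for dying cells, measured 93.8, 57.8 and 71.3 CPM in JA, 83.5, 85.1 and 62.9 in UA, 238, 52.0 and 79.3 in JU, 76.6, 132 and 76.3 in vehicle, and 50.9, 76.7 and 78.3 in sham libraries. For Anxa5 vehicle overlapped each of the other groups, and 1 library each of JU and vehicle stood out.

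S100a8 and S100a9, which join into calprotectin and bind the receptors Tlr4 and Ager, were close to the lower end of detection, at 5 to 66 counts and 7 to 59 counts per library. S100a8 measured 1.31, 0.720 and 0.718 CPM in JA, 0.442, 0.444 and 1.95 in UA, 3.40, 0.273 and 0.937 in JU, 0.512, 1.32 and 0.239 in vehicle, and 0.579, 0.729 and 1.36 in sham libraries. S100a9 measured 2.06, 1.08 and 0.718 CPM in JA, 0.387, 1.18 and 3.02 in UA, 2.06, 0.437 and 2.37 in JU, 0.768, 1.42 and 0.717 in vehicle, and 0.579, 1.67 and 1.88 in sham libraries. For both genes all 5 groups overlapped, and the vehicle mean was below the sham mean. Of the neutrophil markers set beside them, Ly6g was at 0 in 10 of 15 libraries and at most 0.205 CPM, and Elane was at most 0.245 CPM. Mmp8, a collagenase of neutrophil granules, measured 0.972, 3.78 and 0.669 CPM in vehicle, against 0.0526, 0.104 and 0.104 CPM in sham libraries, and 8.64 CPM in JU replicate 1. Mmp9 ran from 3.92 to 5.94 CPM in vehicle and from 2.34 to 4.95 CPM in sham libraries. The summed neutrophil list of 12 genes reached 28.1 to 57.9 CPM in vehicle, against 8.05 to 10.9 in sham libraries, and most of it was Csf3r, at 19.8 to 47.0 CPM in vehicle and 2.79 to 4.49 CPM in sham libraries. Other genes of that list did not share this rise. Ltf averaged 0.264 CPM in vehicle and 0.348 CPM in sham libraries, Retnlg 0.118 and 0.156 CPM, and Ngp 0.708 and 0.695 CPM. The Camp mean was also lower in vehicle than in sham libraries, while those of Mpo, Cxcr2 and Stfa2l1 were higher. For each of these genes vehicle and sham libraries overlapped.

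The first comparison asks which of the genes differ between occluded brain given vehicle and sham brain. S100a4, S100a6, S100a11, Anxa1, Anxa2 and Anxa3 were higher in every vehicle library than in every sham library, 6 of 10 members, beside 24.5% of all 15125 genes tested with that non-overlap. None passed the test with all 15 libraries in the fit: edgeR's quasi-likelihood test with Benjamini-Hochberg adjustment over all genes called 0 of 10, against 5.02% of all genes (0.787% higher). At an unadjusted p under 0.05 there were 4 members (S100a4, S100a11, Anxa2 and Anxa3), beside 29.3% of all genes. DESeq2 called 4 members higher, beside 7.68% of genes called higher, and limma voom with quality weights called 6, beside 17.7%. The largest log2 fold change was that of S100a4, 3.26 ± 0.96 (SE; adjusted p = 0.0660, edgeR), followed by S100a11 at 2.51 ± 0.95 (0.117), Anxa3 at 2.36 ± 0.86 (0.106), Anxa2 at 2.11 ± 0.86 (0.135), Anxa1 at 2.02 ± 1.08 (0.223) and S100a6 at 1.11 ± 0.51 (0.172). Those of Anxa5 (0.47 ± 0.45), S100a10 (0.39 ± 0.34), S100a8 (-0.36 ± 0.88) and S100a9 (-0.50 ± 0.76) were smaller than or close to their SE, with adjusted p of 0.459 or more. The median over the 10 members was 1.57, beside 0.00 over all genes tested.

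Without JU replicate 1 the same comparison called 6 members higher, S100a4, S100a6, S100a11, Anxa1, Anxa2 and Anxa3, beside 17% of all genes called higher. That library belongs to neither group and enters the comparison through the shared estimate of spread and through scaling. The fold changes barely moved, with S100a4 at 3.25 ± 0.58 (adjusted p = 0.00287, edgeR), S100a11 at 2.498 ± 0.46 (0.00327), S100a6 at 1.11 ± 0.25 (0.00704), Anxa2 at 2.11 ± 0.47 (0.00809), Anxa3 at 2.35 ± 0.59 (0.0122) and Anxa1 at 2.02 ± 0.57 (0.0195). Without JU replicate 2 in place of it, 2 members were called, S100a4 and Anxa3, and the share of all genes called in that fit is not given here. With vehicle replicate 2 left out as well as JU replicate 1, an alternative chosen after the data were seen, 4 of the 6 were still called, S100a4 at a log2 fold change of 2.64, S100a11 at 1.81, Anxa2 at 1.497 and S100a6 at 0.80, beside 8.94% of all genes called higher.

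**Figure D3:**
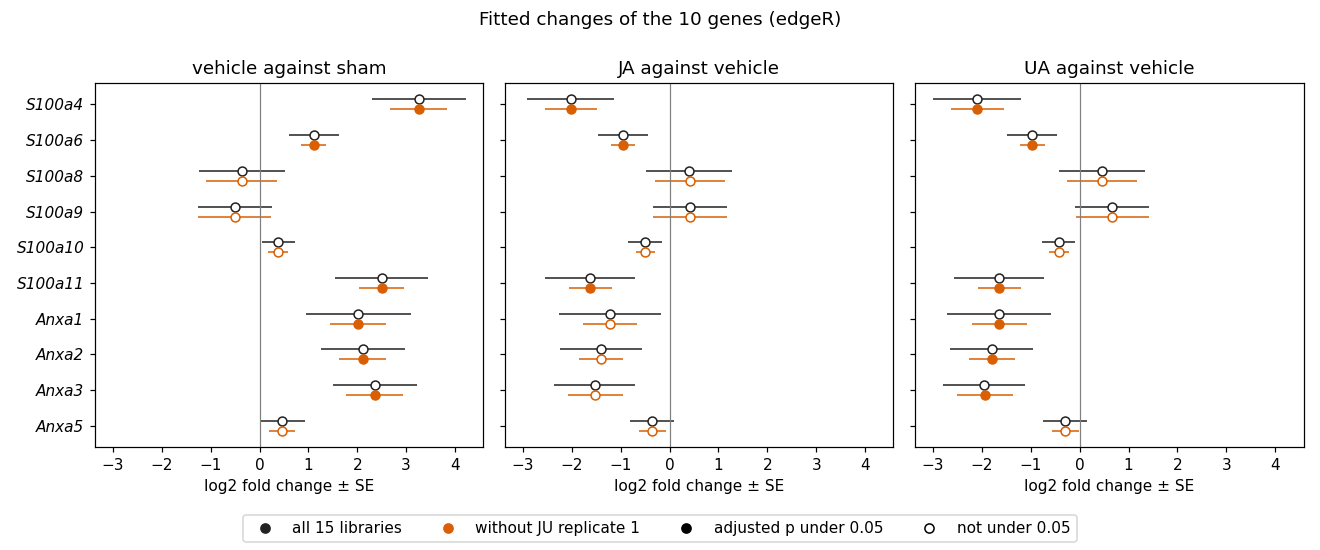
Log2 fold change ± SE from edgeR (x axis) for each of the 10 genes (y axis) in vehicle against sham, JA against vehicle and UA against vehicle, with all 15 libraries (black) and without JU replicate 1 (orange). Filled points have an adjusted p under 0.05. The positions are nearly the same in both fits while the bars are shorter without that library, and S100a8 and S100a9 lie on the other side of 0 from the other 8 genes in each panel.

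JA and UA against vehicle ask whether the genes differ under each treatment, and both use the same 3 vehicle libraries. JA libraries were all below all vehicle libraries for S100a4, S100a6, S100a10, S100a11 and Anxa3, 5 of 10 members beside 15.7% of all genes. UA libraries were all below vehicle for S100a4, S100a6, S100a11, Anxa1, Anxa2 and Anxa3, 6 of 10 members beside 22.2% of all genes. With all libraries edgeR called 0 of 10 in JA against vehicle, beside 1.56% of all genes (0.0727% lower), and 0 of 10 in UA against vehicle, beside 3.47% (0.350% lower). At an unadjusted p under 0.05 there was 1 member in JA (S100a4, beside 18.8% of genes) and 2 in UA (S100a4 and Anxa3, beside 24.3%). DESeq2 called 0 members in either, and its share of all genes called is not given here. In each comparison limma voom with quality weights called 5 lower, beside 11.4% of genes called lower in JA and 12.9% in UA.

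S100a4 averaged 2.72 ± 1.81 CPM in JA and 2.56 ± 0.741 CPM in UA, against 11.1 ± 6.64 CPM in vehicle (SD, n = 3 each). Its log2 fold change was -2.02 ± 0.89 in JA (SE; adjusted p = 0.253, edgeR) and -2.11 ± 0.90 in UA (0.184). Anxa3 gave -1.53 ± 0.83 in JA (adjusted p = 0.320, edgeR) and -1.96 ± 0.84 in UA (0.187), and Anxa2 -1.41 ± 0.84 (0.355) and -1.80 ± 0.85 (0.215). For S100a11 the values were -1.63 ± 0.92 in JA and -1.65 ± 0.92 in UA, for Anxa1 -1.23 ± 1.04 and -1.65 ± 1.06, and for S100a6 -0.96 ± 0.51 and -0.97 ± 0.51. S100a10 (-0.50 in JA, -0.43 in UA) and Anxa5 (-0.35 in JA, -0.30 in UA) had smaller negative values, and those of S100a8 (0.40 in JA, 0.45 in UA) and S100a9 (0.41 in JA, 0.66 in UA) were positive and within 1 SE of 0. The medians over the 10 members were -1.09 in JA and -1.31 in UA, beside -0.01 over all genes in each.

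Without JU replicate 1, JA against vehicle called 3 members lower, beside 7.76% of all genes called lower. They were S100a4 (-2.02 ± 0.54, SE; adjusted p = 0.0263, edgeR), S100a6 (-0.96 ± 0.25, 0.0239) and S100a11 (-1.62 ± 0.44, 0.0283). UA against vehicle then called 6 lower, S100a4, S100a6, S100a11, Anxa1, Anxa2 and Anxa3, beside 13.4% of all genes, with adjusted p from 0.0165 for S100a6 to 0.0471 for Anxa1. With vehicle replicate 2 also left out, neither comparison called a member. The share of all genes called there is not given here, so that count cannot be read as a result about the members. With JA replicate 1 left out in place of vehicle replicate 2, both called the same 6, beside 14.8% of genes called lower in JA and 16.1% in UA. Those settings were chosen after the data were seen. JU against JA and JU against UA are the comparisons between treatments run here, and JA against UA was not tested.

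The JU group was split by its libraries rather than by gene. The median of the 8 members other than S100a8 and S100a9, as log2 CPM minus the sham mean, was 3.85, -0.13 and 0.77 in JU replicates 1, 2 and 3. It was 1.47, 0.20 and -0.09 in JA, 0.19, 0.47 and 0.27 in UA, and 1.18, 2.87 and 1.39 in vehicle libraries. JU replicate 1 was above every vehicle library for all 10 members, JU replicate 2 was at or below the highest sham library for 8 of 10, and JU replicate 3 lay between the other JU libraries for all members except S100a9 and S100a10. Against vehicle edgeR called 0 of 10 members and 0% of all genes, with an adjusted p of 1 for every member. At an unadjusted p under 0.05 there were 0 members and 1.98% of genes. DESeq2 and limma voom also called 0 members, and their shares of all genes called are not given here. The fold change against vehicle was positive for 10 of 10 members with all libraries and for 1 of 10 (S100a9) without JU replicate 1, so no size is given.

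**Figure D4:**
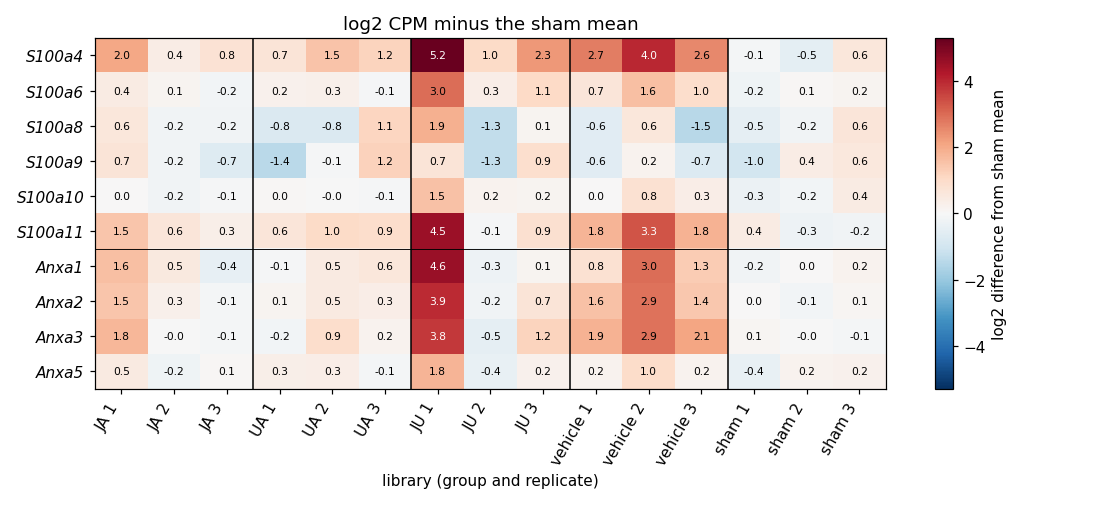
Log2 CPM minus the sham mean for each of the 10 genes (rows) in each library (columns, grouped as JA, UA, JU, vehicle and sham), with red for higher and blue for lower. JU replicate 1 is the darkest column, up to 5.24 for S100a4, vehicle replicate 2 is next, JA replicate 1 is about level with the other vehicle libraries, and JU replicate 2 resembles the sham columns.

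Against sham, JU called 1 member with all libraries, S100a4, beside 3.72% of all genes (0.800% higher), with a log2 fold change of 3.93 ± 0.98 (SE; adjusted p = 0.0484, edgeR). At an unadjusted p under 0.05 there were 7 members, beside 32.8% of genes. S100a4 and S100a6 were above every sham library in all 3 JU libraries, beside 13.9% of all genes with that non-overlap. The log2 fold change of S100a4 was 1.81 ± 0.63 without JU replicate 1 (adjusted p = 0.137, edgeR). Its call was also lost on leaving out any other single library except JU replicate 2, without which 7 members were called. The share of all genes called in that last fit is not given here. JA and UA against sham called 0 of 10 members each in edgeR, DESeq2 and limma voom, beside 0% of all genes in edgeR. The shares for DESeq2 and limma voom are not given here. At an unadjusted p under 0.05 there were 0 members in either, beside 3.31% of all genes in JA and 1.28% in UA. All UA libraries were above all sham libraries for S100a4, S100a11 and Anxa2, 3 of 10 members beside 6.41% of genes. JU against JA called 0 of 10 members in edgeR, beside 0% of all genes. A fit of these 6 libraries alone with the replicate number as a block, chosen after the data were seen, also called 0 members. The share of all genes called with that block is not given here. In the fit of all libraries there were 5 members at an unadjusted p under 0.05 beside 20.3% of genes. There DESeq2 called 2 higher, beside 1.42% of genes called higher, and limma voom 1, beside 13.2% called in either direction. JU against UA called 0 of 10 members in edgeR, beside 1.08% of all genes, with 7 members at an unadjusted p under 0.05 beside 27.3% of genes. There DESeq2 called 4 higher, beside 4.93% of genes called higher, and limma voom 1, beside 19.7% called in either direction. All JU libraries were above all JA libraries for S100a10 (6.39% of genes) and above all UA libraries for S100a6 and S100a10 (9.77%). The fold changes in both were positive for 10 of 10 members with all libraries and for 4 of 10 without JU replicate 1.

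Likeness across the 15 libraries was measured as the root mean square (RMS) difference in log2 CPM minus the sham mean, a description that shares the same libraries and the same outlying JU library for every gene. Among members the nearest pairs were S100a10 and Anxa5 (0.27), Anxa1 and Anxa2 (0.32) and Anxa2 and Anxa3 (0.32). S100a4 lay 0.70 from its nearest member, S100a11, and S100a8 and S100a9 were nearest to each other (0.55). Of 14055 other genes at 1 CPM or more, the 3 closest to Anxa2 were Npl (0.14), Tagln2 (0.14) and Ctsb (0.15). The closest to S100a10 were Ckap4 (0.14), Btg1 (0.15) and Ybx1 (0.15), and to Anxa5 they were Dock11 (0.18), Erap1 (0.18) and Lamp2 (0.19). S100a6 was nearest to Bag3 (0.18), Ggt5 (0.20) and Lima1 (0.22), and Anxa3 to Fes (0.21), Lpxn (0.22) and Renbp (0.23). S100a11 was nearest to Tnfrsf1b (0.29), Fxyd5 (0.30) and Apobr (0.30), Anxa1 to Myof (0.29), Anpep (0.33) and Cxcr4 (0.33), and S100a4 to Vim (0.39), Tent5c (0.40) and Adgre1 (0.41). No gene came near S100a8, whose closest was Omd (0.54), or S100a9, whose closest was Depdc7 (0.58).

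Other genes of both families were set beside the members. Of 10 other S100 genes 5 were tested, and 0 were called in vehicle against sham, with 3 at an unadjusted p under 0.05. Over all genes 5.02% were called and 29.3% had an unadjusted p under 0.05. S100b, the abundant S100 protein of astrocytes, averaged 203 ± 35.0 CPM in vehicle and 159 ± 5.52 CPM in sham libraries (SD, n = 3 each), a log2 fold change of 0.36 ± 0.14 (SE; adjusted p = 0.128, edgeR), and S100a3 gave 1.32 ± 0.56 (0.147). Of 8 other annexins 6 were tested and 0 were called, with 1 at an unadjusted p under 0.05, beside the same shares of all genes. Anxa4, a membrane-binding annexin of epithelia, averaged 16.3 ± 8.82 CPM in vehicle and 4.29 ± 0.806 CPM in sham libraries (1.93 ± 0.89, adjusted p = 0.170), and Anxa9 gave 0.71 ± 0.60. Neither list held a called gene in JA or UA against vehicle with all libraries. In JA the S100 genes with the smallest p were S100a16 (-0.47 ± 0.14, SE; adjusted p = 0.122, edgeR) and S100b (-0.38 ± 0.14), and the annexins Anxa7 (0.10 ± 0.07) and Anxa4 (-1.03 ± 0.86). In UA they were S100a13 (-0.43 ± 0.26) and S100a16 (-0.15 ± 0.14), and Anxa4 (-1.86 ± 0.88) and Anxa11 (-0.36 ± 0.22). Without JU replicate 1 vehicle against sham called 1 of 5 other S100 genes, S100a13 (0.58 ± 0.17, SE; adjusted p = 0.0219, edgeR), and 1 of 6 other annexins, Anxa4 (1.92 ± 0.53, 0.0169), higher. Over all genes 17% were called higher in that fit. JA against vehicle then called S100a13 (-0.57 ± 0.17, 0.0371) and S100a16 (-0.46 ± 0.14, 0.0366) lower, and UA against vehicle called Anxa4 lower (-1.85 ± 0.52, 0.0248). The shares of all genes called lower were 7.76% in JA and 13.4% in UA.

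Of 14 receptors and binding partners of these proteins 11 were tested, and 1 was called in vehicle against sham. Cacybp, the calcyclin-binding protein that docks S100a6 and takes part in ubiquitin ligation, measured 58.8, 52.4 and 59.2 CPM in vehicle, against 81.8, 89.8 and 97.1 CPM in sham libraries. It fell by 0.66 on the log2 scale (SE 0.14; adjusted p = 0.0199, edgeR), beside 4.24% of all genes called lower, and was opposite in sign to S100a6. In UA libraries Cacybp measured 102, 84.5 and 87.1 CPM, all above vehicle, and it rose by 0.68 ± 0.14 against vehicle (SE; adjusted p = 0.0238, edgeR), beside 3.12% of all genes called higher. JU libraries, at 47.7, 68.4 and 55.9 CPM, gave -0.64 against sham (adjusted p = 0.0308, edgeR) and -0.67 against UA (0.0460), and JA libraries, at 71.8, 72.0 and 90.0 CPM, gave 0.46 ± 0.14 against vehicle (0.114). With a correction for transcript GC content Cacybp was no longer called in vehicle against sham (-0.37, adjusted p = 0.198, edgeR) or in UA against vehicle (0.39, 0.375). Leaving out any vehicle library, or sham replicate 2 or 3, gave an adjusted p between 0.0516 and 0.115 in vehicle against sham, and leaving out any UA or vehicle library gave 0.0541 to 0.112 in UA against vehicle. In JU against sham the call was lost with the GC correction (adjusted p = 0.142) and without JU replicate 3 or any sham library (0.0549 to 0.142).

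Ager, the receptor for advanced glycation end products that binds several S100 proteins, measured 0.111, 0.148 and 0.102 CPM in UA, against 0.358, 0.540 and 1.05 CPM in vehicle libraries. The UA values were at or below the floor, so no fold is given. Its adjusted p was 0.0360 in UA against vehicle and 0.0449 in JU against UA (edgeR), and leaving out any UA or vehicle library gave 0.0575 to 0.126 in UA against vehicle. The call there was also lost without JA replicate 1 or 2, JU replicate 3, or sham replicate 1 or 2, at 0.0511 to 0.0539. It was lost too with the GC correction (0.298) and on log2 FPKM with a pseudocount of 0.1 (0.0516, limma) or 1 (0.116, limma), and DESeq2 gave Ager no adjusted p. No other receptor gene of calprotectin or Anxa1 was called with all libraries. Tlr4 averaged 8.87 CPM in vehicle and 2.58 CPM in sham libraries (adjusted p = 0.180, edgeR), and Cd14, its co-receptor, averaged 7.73 CPM in UA, 26.6 CPM in vehicle and 3.63 CPM in sham libraries. In JA libraries Cd14 averaged 6.41 CPM, a log2 fold change of -2.05 ± 0.95 against vehicle (SE; adjusted p = 0.266, edgeR). The formyl peptide receptors Fpr1 and Fpr2 were at most 0.669 CPM in any library and were not tested. The plasminogen activator gene Plau and its receptor gene Plaur averaged 40.9 and 7.29 CPM in vehicle, against 3.96 and 0.696 CPM in sham libraries, with adjusted p of 0.111 and 0.0892 (edgeR). Without JU replicate 1 vehicle against sham called 7 of these 11 genes higher (17% of all genes higher) and Cacybp lower (16.9% of all genes lower). They were Ager, Tlr4 (1.77 ± 0.50, SE; adjusted p = 0.0176, edgeR), Cd14 (2.87 ± 0.73, 0.0136), Plau (3.36 ± 0.87, 0.0152), Plaur (3.37 ± 0.78, 0.00795), Ahnak, a scaffold bound by S100a10 (1.22 ± 0.29, 0.00883), and the plasminogen activator gene Plat (0.54 ± 0.15, 0.0151). UA against vehicle then called Ager, Ahnak, Plat, Plau and Plaur lower (13.4% of all genes lower) and Cacybp higher (14.8% of all genes higher). JA against vehicle called Cacybp higher (0.46 ± 0.11, adjusted p = 0.0182, edgeR), beside 11.3% of all genes higher.

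Marker lists of the cell types that brain tissue can hold differed in how they moved beside the members. In vehicle against sham edgeR called 5 of 10 tested microglia genes and 1 of 5 neutrophil genes (Csf3r) higher, and no gene higher in the other 10 lists, beside 0.787% of all genes called higher. At an unadjusted p under 0.05 all 10 activated phagocyte genes, 4 of 10 of monocytes and border macrophages, 7 of 14 of reactive astrocytes and 5 of 8 of fibroblasts were counted, beside 29.3% of all genes. The same count was 2 of 8 for homeostatic astrocytes, 1 of 8 for oligodendrocytes, 1 of 8 for endothelium, 0 of 8 for neurons, 3 of 8 for choroid plexus and ependyma and 1 of 6 for red cells. Without JU replicate 1 edgeR called 10 of 10 genes higher for microglia and for activated phagocytes, 13 of 14 for reactive astrocytes, 7 of 8 for fibroblasts, 4 of 10 for monocytes and border macrophages, 2 of 5 for neutrophils (Csf3r and Mmp8), 3 of 8 for endothelium and 1 of 8 for choroid plexus and ependyma. Over all genes 17% were called higher in that fit. In the same fit edgeR called 6 of 8 neuron genes, 2 of 8 for homeostatic astrocytes, 1 of 8 for oligodendrocytes and 1 of 8 for endothelium lower, beside 16.9% of all genes called lower. In UA against vehicle without that library, 7 of 10 activated phagocyte, 8 of 10 microglia, 7 of 8 fibroblast and 4 of 14 reactive astrocyte genes were called lower and 6 of 8 neuron genes higher, beside 13.4% of all genes called lower and 14.8% called higher. In JA against vehicle the same counts were 1 of 10, 5 of 10, 3 of 8 and 2 of 14 lower and 4 of 8 neuron genes higher, beside 7.76% of all genes called lower and 11.3% called higher. With all libraries, median log2 fold changes in vehicle against sham were 5.81 for activated phagocytes, 2.03 for microglia, 1.95 for monocytes and border macrophages, 1.91 for reactive astrocytes, 1.85 for fibroblasts, 0.41 for neutrophils, 0.32 for choroid plexus and ependyma, 0.26 for endothelium, 0.15 for homeostatic astrocytes, -0.08 for oligodendrocytes, -0.36 for neurons and -1.84 for red cells.

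The summed level of the activated phagocyte list was 2610 to 8196 CPM in vehicle and 182 to 206 CPM in sham libraries. In JA it ran from 196 to 3077 CPM, in UA from 244 to 708 CPM and in JU from 198 to 21283 CPM, with JA replicate 1 and JU replicate 1 at the upper ends. The reactive astrocyte list ran from 1450 to 3704 CPM in vehicle and from 305 to 335 CPM in sham libraries, with 7229 CPM in JU replicate 1. The fibroblast list ran from 434 to 1564 CPM in vehicle and from 157 to 176 CPM in sham libraries, with 3519 CPM in JU replicate 1. The neuron list ran from 4962 to 7069 CPM in vehicle and from 8613 to 8784 CPM in sham libraries, and was 3229 CPM in JU replicate 1. The part of these cell types in the members' levels was not tested.

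**Figure D5:**
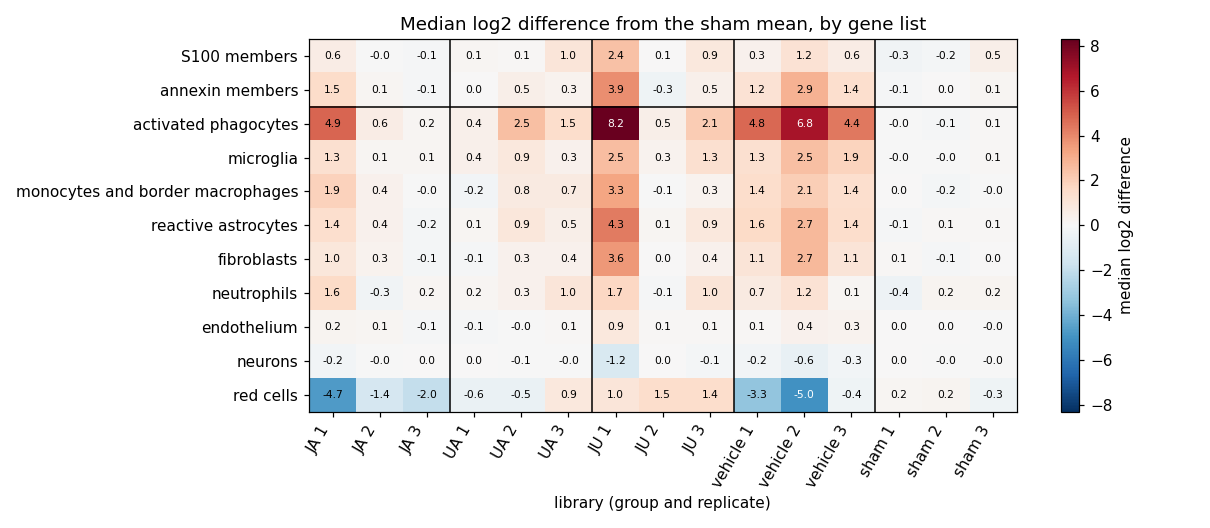
Median log2 CPM minus the sham mean of the S100 members, the annexin members and 9 marker lists (rows) in each library (columns, grouped as JA, UA, JU, vehicle and sham). Columns that are high for the annexins, with JU replicate 1 at 3.9 and vehicle replicate 2 at 2.9, are also high for activated phagocytes (8.2 and 6.8) and lower for neurons (-1.2 and -0.6).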

How the data were processed

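The deposited table holds whole-number read counts per gene and library, not normalized, per the file headers. Its deposited FPKM columns (fragments by transcript length and depth) served here to compare levels between genes. Per the labels' protocols, extraction used a mirVana kit and library preparation the TruSeq Stranded mRNA kit. Tools named in the submitters' processing notes are Trimmomatic, HISAT2, Cufflinks and DESeq, with the builds GRCm38 and mm10. The sources used here give no version, counting tool, strand setting or annotation. 1 count column matched the labels of no sample and was not used.

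Groups and replicate numbers came from the labels. Counts were tested in R 4.3.3 with the edgeR 4.0.16 quasi-likelihood test, with TMM scaling (0.975 to 1.03), filterByExpr by group (15125 genes kept), robust fits and a term per group over all 15 libraries. The fit left 10 residual degrees of freedom, and the common biological coefficient of variation came to 27.1%. Adjusted p-values are Benjamini-Hochberg values over all genes of a comparison, with a threshold of 0.05, and an SE is the absolute log2 fold change over the root of F. Log2 CPM used a prior count of 2. Alternatives were DESeq2 1.42.0, limma 3.58.1 (voom with quality weights, and log2 FPKM with a pseudocount of 0.1 or 1), RLE scaling, no filter, a replicate block, a GC offset, fits of the compared groups alone and each library left out. The test was run on simulated counts with a smaller spread than these data and no outlying library, so that check does not cover the spread found here. Coordinates and GC content (97.8% of genes) come from GENCODE for GRCm38. Replicates differed beyond sampling noise (smallest chi-square per degree of freedom 5.16). Deviations of same-numbered libraries correlated over 0.1 in every pair for JA with JU alone (0.70, 0.39 and 0.42), so a paired fit was added there. In the other group pairs the values ran down to -0.73 and the numbers did not pair the samples, and the labels tie no meaning to the numbers.

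The members and the 17 gene lists (152 genes, 151 found), 12 of them marker lists, were chosen with earlier results of these data known. All members are named. From the other family and partner lists the rule takes called genes, at most 4 by smallest p, or, where none is called, the 2 with the smallest p. Marker lists are given by counts, medians and sums. The nearest genes are the 3 with the smallest RMS difference. Tlr4, Fpr1, Fpr2, Plau, Plaur, Plat, Ahnak, Csf3r, Mmp8, Mmp9, Ngp, Ltf, Retnlg, Camp, Mpo, Cxcr2 and Stfa2l1, Cd14 outside JA against vehicle, and genes called only without JU replicate 1 were named after their values were seen.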

Additional observations from a re-analysis of the deposited data

How the results depend on the processing

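The count of members called depended on the setting, while the direction of the fold changes mostly did not in vehicle against sham and in JA and UA against vehicle. Of 837 recomputed fold changes of members there and of S100a4 in JU against sham, 724 kept their direction and side of the threshold. Of the rest, 81 became called, 24 were no longer called and 8 changed sign. No member was called with all libraries in vehicle against sham or in JA and UA against vehicle, so no call could be lost there. All 24 lost calls were those of S100a4 in JU against sham. That call was kept only with DESeq2, with voom and quality weights, and without JU replicate 2. In vehicle against sham the count was 0 in the fit of all libraries, 4 with DESeq2 and 6 with voom and quality weights, with the compared groups alone, or with the GC offset and JU replicate 1 left out. It was 6 without JU replicate 1 and JA replicate 1 and 4 without JU replicate 1 and vehicle replicate 2, both chosen after seeing the data. In JA against vehicle it was 5 with voom and 6 without JU replicate 1 and JA replicate 1. In UA against vehicle it was 5 with voom, 4 with the compared groups alone, 6 with the GC offset and JU replicate 1 left out, and 6 without JU replicate 1 and JA replicate 1. In JU against sham the count of 1 became 6 with DESeq2 and 2 with voom, and 0 with RLE scaling, no filter, the GC offset (with and without JU replicate 1), the compared groups alone, log2 FPKM with either pseudocount, and both settings with a pair of libraries left out. JU against JA gave 2 with DESeq2 and 1 with voom, and JU against UA 4 with DESeq2 and 1 with voom. On leaving out each library in turn, counts ran from 0 to 6 in vehicle against sham, 0 to 3 in JA against vehicle, 0 to 6 in UA against vehicle, 0 to 7 in JU against sham and 0 to 6 in JU against UA. The share of all genes called moved as well. In vehicle against sham 0.787% were called higher with all libraries in edgeR, 7.68% with DESeq2 and 17.7% with voom. Where no share is printed for a setting, its count of members cannot be read as a result about the members. The replicate block, which rests on numbers that paired JA with JU alone (6 of 15 libraries correlated best with their own number), gave 0 members in JU against sham, where S100a4 had a log2 fold change of 3.46 (adjusted p = 0.0990, edgeR), and changed no other count of members. It gave an adjusted p of 0.0745 for Ager in UA against vehicle. In the comparisons with JU directions depended on single libraries: on leaving out each in turn, members with a positive fold change numbered 1 to 10 in JU against vehicle, 4 to 10 in JU against JA and in JU against UA, and 7 to 10 in JU against sham, beside 4 to 10 in JA against sham and 6 to 10 in UA against sham. On leaving out each library in turn, S100a8 ran from -1.24 to 0.0673 in vehicle against sham and from -0.62 to 1.33 in UA against vehicle. S100a9 ran from -0.10 to 0.80 in JA against vehicle and from -0.28 to 1.12 in UA against vehicle, and Anxa5 from -0.43 to 0.0205 in UA against vehicle. S100a9 was at -0.11 in JA against vehicle without JU replicate 1 and JA replicate 1, Anxa5 at 0.0173 in UA against vehicle without JU replicate 1 and vehicle replicate 2, and S100a16 at 0.0022 in UA against vehicle with the GC offset and JU replicate 1 left out. S100a8 and S100a9 rest on 5 to 66 counts a library, and the smallest difference detectable at that depth was not tested. The causes of these changes were not tested.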
